A study of Mus musculus with 4 samples.

Results

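The 34 genes described here encode ATF4, related and downstream transcription factors, effectors of the integrated stress response, and the transporters and enzymes that supply amino acids and one-carbon units. They were taken as a list of gene symbols, and all 34 were found among the 15219 features with at least 1 exon read. The cells were naive CD4+ T cells sorted from spleens of C57BL/6 mice and stimulated for 24 h on plates coated with anti-CD3 and anti-CD28. All 4 cultures were driven towards a Th17 fate with the cytokines IL-1β, IL-6, and also IL-23, while antibodies blocked IL-4 and IFN-γ. One culture received 1.5 µM DMAT and another 1 µM CX4945, both inhibitors of the protein kinase CK2, and the titles name a separate control culture for each. What the control cultures received in place of the inhibitor is not given in the sources used here. Each of the 4 groups was 1 library, so a ratio within a pair compares 2 libraries and has no replicate check.

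ATF4 is a basic leucine zipper factor whose mRNA is translated efficiently when the initiation factor eIF2 is phosphorylated, as happens in amino acid shortage or ER stress, and ATF4 output also rises with mTORC1 activity. Together with C/EBP family partners it binds composite C/EBP-ATF elements and switches on genes for asparagine and serine synthesis, mitochondrial folate enzymes and amino acid transport. Activated T cells draw on this programme as they grow and start to divide.

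The letters TGATGNAA, the core of the composite element, were searched on both strands of RefSeq promoter windows (build GRCm38.p6, 250 bases before to 50 after each start), since this is the sequence that ATF4 is known to bind. A window was found for 32 of the 34 members, all but Slc7a3 and Cth, and 10 of these 32 held a match (31.25%). The letters occurred in 3.97% of all 32851 windows and, counted by gene as for the members, in 4.51% of 27025 genes. The share was 2.60% of the 6845 genes with a window that were abundant enough for the joint test given further on. Of the members with a match, Atf3, Chac1, Slc7a11, Vldlr and Nupr1 were too scarce for that test, so the last share covers an unlike set. Each match is printed 5′ to 3′ in the direction in which it reads TGATGNAA, with those letters in capitals and 11 bases on either side.
Atf3, chr1:191183425-191183454 (plus strand): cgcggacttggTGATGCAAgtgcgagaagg
Trib3, chr2:152344028-152344057 (plus strand): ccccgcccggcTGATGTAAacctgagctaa
Chac1, chr2:119351038-119351067 (minus strand): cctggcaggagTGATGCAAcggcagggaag
Asns, chr6:7693214-7693243 (minus strand): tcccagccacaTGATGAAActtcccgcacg
Slc7a11, chr3:50443661-50443690 (minus strand): tctcatgtggcTGATGCAAacctggagaat
Slc7a11, chr3:50443642-50443671 (plus strand): gggctgcatgaTGATGCAAattctccaggt
Slc1a4, chr11:20332699-20332728 (plus strand): caggctggagaTGATGCAAcgcaggaggca
Vldlr, chr19:27216809-27216838 (minus strand): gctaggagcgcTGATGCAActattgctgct
Pycr1, chr11:120643833-120643862 (minus strand): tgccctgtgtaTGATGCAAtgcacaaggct
Got1, chr19:43524689-43524718 (plus strand): ggaggcttgtaTGATGCAAccaatgcaatg
Nupr1, chr7:126625562-126625591 (plus strand): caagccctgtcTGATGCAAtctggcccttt

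Of the 11 matches, 9 read TGATGCAA. Asns had TGATGAAA, beginning 23 bases before its start, and Trib3 had TGATGTAA, beginning at base 15 after its start. Slc7a11 held 2 matches on opposite strands. Atf4, Psat1, Phgdh, Psph, Shmt2 and Mthfd2 held none, which says only that these letters are not in these windows. The letters CCACG, found in elements of the unfolded protein response and searched apart from the first motif, lay in 22 of 32 members (68.75%). The share was 35.5% of the 27025 genes with a window and 54.9% of the genes of the joint test, which leaves out the scarcer members. For Chac1 and Asns, which differed strongly between libraries, the 250 bases before the start are shown with the match in capitals, on the strand of the gene.
Chac1, chr2:119350992-119351241 (plus strand): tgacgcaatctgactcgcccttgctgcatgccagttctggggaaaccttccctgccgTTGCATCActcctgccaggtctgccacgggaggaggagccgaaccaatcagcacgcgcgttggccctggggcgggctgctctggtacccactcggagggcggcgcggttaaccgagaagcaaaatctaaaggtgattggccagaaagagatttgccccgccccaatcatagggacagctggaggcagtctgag
Asns, chr6:7693210-7693459 (minus strand): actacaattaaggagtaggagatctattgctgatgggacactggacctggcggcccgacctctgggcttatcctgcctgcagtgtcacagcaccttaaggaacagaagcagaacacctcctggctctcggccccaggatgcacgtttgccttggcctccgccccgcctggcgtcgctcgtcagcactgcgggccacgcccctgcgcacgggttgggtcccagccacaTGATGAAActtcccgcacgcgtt

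The libraries held 2056635 to 2772525 exon reads. Levels are given as CPM, the reads of a gene scaled to library size, in the order control for DMAT, DMAT, control for CX4945, CX4945 throughout. Depth fell in that same order. A list of 10 T cell genes summed to 2460 to 2827 CPM, while B cell genes reached 1.8 CPM at most with Cd79b and Ms4a1 at 0 reads, NK and erythroid genes were at 0, and Cst3 alone of the myeloid genes exceeded 2 reads in a library. In bulk RNA, fewer cells of a type and less RNA per cell cannot be told apart.

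Most of the stress genes had their highest level in 1 library, the control for DMAT. Among all 34 members that library was the highest for 23, the DMAT library for 6, the control for CX4945 for 4 and the CX4945 library for 1. Of the 28 members abundant enough for the joint test, it was the highest for 17 (60.7%), against 23.1% of all 9629 genes. The summed level of 10 Th17 genes was also highest there, at 1868, 1488, 1524 and 1175 CPM. Irf4 gave the largest part of that sum, at 953, 1091, 773 and 776 CPM. Il17a and Il22 were highest in the control for CX4945, and the other Th17 genes besides Irf4 in the control for DMAT. In the joint test 5 of 9 Th17 genes fell with the inhibitors, namely Il17a, Il17f, Il1r1, Il22 and Il23r. The part of the Th17 genes in the result was not tested.

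**Figure D1:**
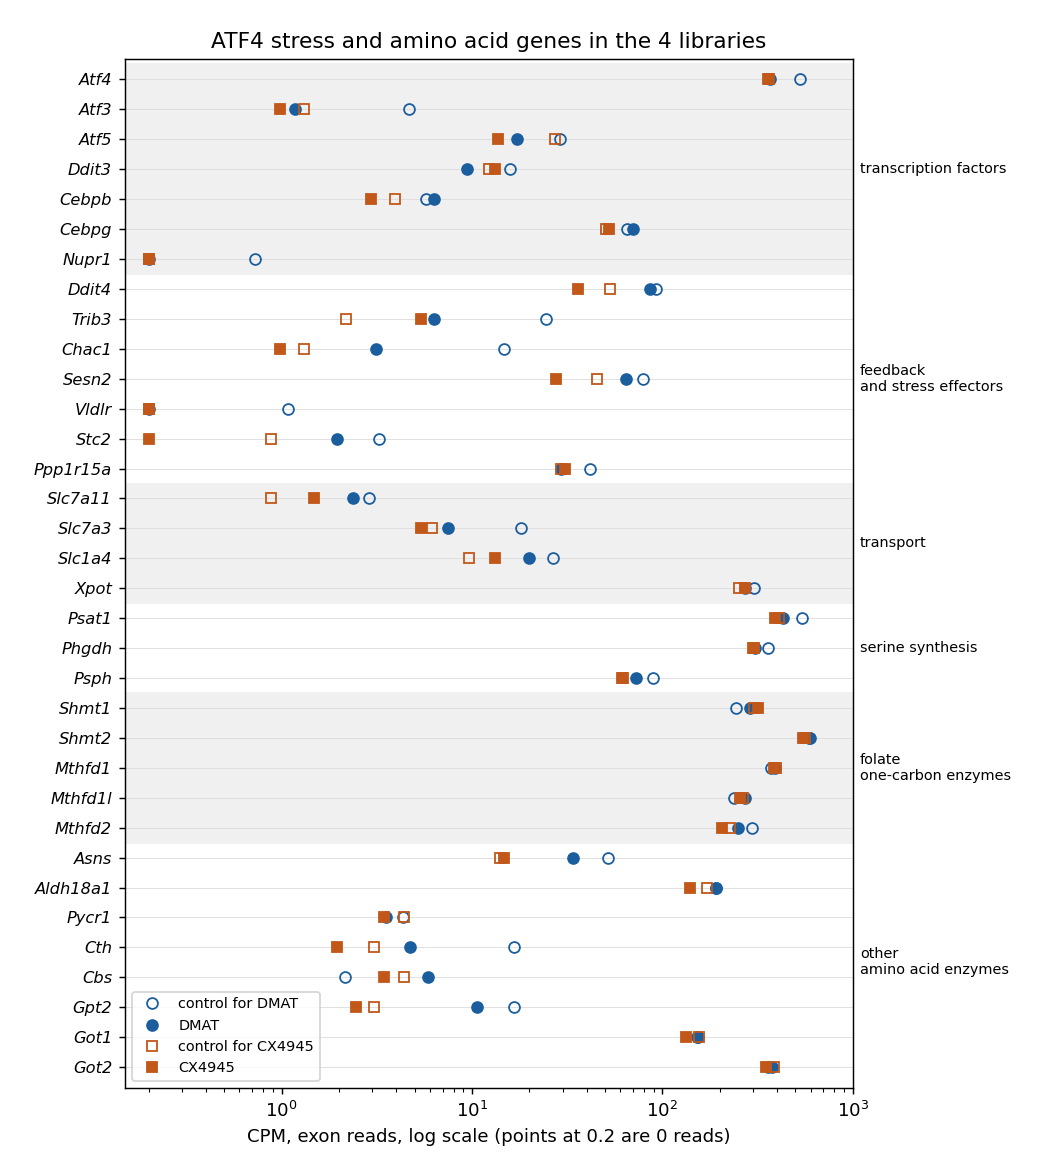
CPM of the 34 genes in each of the 4 libraries on a log axis, with genes grouped by role and points at 0.2 standing for 0 reads. The open circles of the control for DMAT lie furthest right for 23 genes, while Shmt2, Mthfd1, Got1 and Got2 have 4 points close together.

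Transcripts of Atf4 were at 528 CPM in the control for DMAT, 366 with DMAT, 363 in the control for CX4945 and 358 with CX4945. The first library stood above the other 3, which lay close together. Atf4 (mm9, chromosome 15, 80085614 to 80087970) was 1.44-fold lower with DMAT than in its control (95% counting interval 1.33 to 1.57). In the CX4945 pair the ratio was 0.985 (0.891 to 1.09). The control for CX4945 was in turn 1.46-fold below the control for DMAT (1.34 to 1.59). Such intervals hold counting error alone, and reads that carry no molecular identifier need not be independent molecules.

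Ddit3, which encodes the pro-apoptotic factor CHOP, was at 15.8, 9.43, 12.3 and 13.3 CPM. DMAT was the lowest library for it, and the control for DMAT the highest. Its ratio was 0.595 with DMAT (0.346 to 1.00) and 1.08 with CX4945 (0.614 to 1.91), so the direction differed between the pairs within wide intervals.

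Atf5, a stress-responsive relative of ATF4, was at 28.8, 17.3, 27.1 and 13.8 CPM, with both inhibitor libraries below both controls. In the DMAT pair it was lower by 1.67-fold (1.14 to 2.47), and in the CX4945 pair by 1.97-fold (1.24 to 3.20). The controls differed by 1.06-fold (0.752 to 1.50). With unique reads alone, 76.2% of the total for Atf5, its ratio was 0.683 with DMAT (0.440 to 1.05) and 0.445 with CX4945 (0.247 to 0.770). Pycr1, a proline synthesis enzyme on 7 to 12 reads a library, was the other of 28 members with both inhibitor libraries below both controls, an order found in 15.0% of all genes. The opposite order was found in 0 of 28 members and in 14.8% of all genes.

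The C/EBP partner Cebpg lay between 50.3 and 70.3 CPM and Cebpb between 2.95 and 6.28, and neither was highest in the control for DMAT. Atf3 had 13, 3, 3 and 2 reads and the stress-induced regulator Nupr1 2, 0, 0 and 0, where a count of 0 allows up to 1.18 to 1.47 CPM. Both had fewer than 20 reads in each pair, the minimum used here for a ratio.

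Among the stress effectors, Trib3, a pseudokinase induced by ATF4 and CHOP that feeds back on them, was at 24.5, 6.28, 2.19 and 5.4 CPM. The control for DMAT held 68 of its reads and the other libraries 16, 5 and 11. Trib3 was 3.90-fold lower with DMAT than in its own control (2.24 to 7.20), but 2.87-fold higher than in the control for CX4945 (1.01 to 10.0). With CX4945 it had 16 reads in the pair and was not compared.

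Chac1, an enzyme that degrades glutathione, had 41, 8, 3 and 2 reads, or 14.8, 3.14, 1.31 and 0.982 CPM. The control for DMAT again stood alone. Chac1 was 4.70-fold lower with DMAT (2.18 to 11.6). Between the controls it was 11.2-fold lower in that for CX4945 (3.59 to 56.8), as was Trib3, also 11.2-fold (4.57 to 35.6).

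Sesn2 and Ddit4, which encode stress-induced inhibitors of mTORC1, had the same order of libraries as Chac1. The difference between DMAT and its control was smaller for them. Sesn2 was at 78.9, 64.4, 45.1 and 27.5 CPM and Ddit4 at 92.9, 86.0, 53.0 and 35.9. Both libraries of the DMAT experiment lay above both of the CX4945 experiment, and the CX4945 library was the lowest for each gene. With CX4945 Sesn2 was 1.64-fold lower (1.17 to 2.31) and Ddit4 1.48-fold lower (1.10 to 2.0). With DMAT the differences were 1.22-fold (0.996 to 1.51) and 1.08-fold (0.899 to 1.30).

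Ppp1r15a, which encodes GADD34, the subunit that directs a phosphatase to eIF2, lay between 29.3 and 41.4 CPM with the control for DMAT highest. Vldlr, a lipoprotein receptor, had 3 reads in that library and 0 in the others. Stc2, a secreted glycoprotein, had 9, 5, 2 and 0 reads.

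Among the transporters, Slc7a3, which carries arginine and other cationic amino acids, was at 18.0, 7.46, 6.13 and 5.4 CPM. The control for DMAT stood above the other 3 libraries, by 2.41-fold over DMAT (1.40 to 4.33) and 2.94-fold over the control for CX4945 (1.60 to 5.76). With CX4945 it was 1.13-fold lower than in its control (0.478 to 2.76). Slc1a4, a carrier of serine and alanine, was at 26.6, 20.0, 9.63 and 13.3 CPM, with both libraries of the DMAT experiment above both of the other. It was 1.33-fold lower with DMAT (0.919 to 1.94), and its ratio with CX4945 was 1.38 (0.755 to 2.54). The cystine transporter Slc7a11, with 2 of the printed matches, had 8, 6, 2 and 3 reads, and the tRNA exporter Xpot lay between 253 and 303 CPM.

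Among the enzymes, Asns, the asparagine synthetase gene and a standard readout of ATF4, was at 51.9, 33.8, 14.0 and 14.7 CPM. Both libraries of the DMAT experiment were above both of the CX4945 experiment. Asns (mm9, chromosome 6, 7625169 to 7643254) was 1.54-fold lower with DMAT than in its control (1.17 to 2.03), and its ratio with CX4945 was 1.05 (0.618 to 1.79). Between the controls it was 3.70-fold lower in that for CX4945 (2.51 to 5.61). Set against the control for CX4945, the DMAT library was 2.41-fold higher (1.59 to 3.74).

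Cth, which releases cysteine from cystathionine, had 46, 12, 7 and 4 reads, and Gpt2, the mitochondrial alanine transaminase, 46, 27, 7 and 5. The controls differed by 5.41-fold for each (2.42 to 14.2), with the control for DMAT the higher. With DMAT Cth was 3.52-fold lower (1.83 to 7.29) and Gpt2 1.56-fold lower (0.951 to 2.61), while in the CX4945 pair both had fewer than 20 reads. Cbs, which makes cystathionine, was the reverse case, with 6, 15, 10 and 7 reads and a ratio of 2.73 with DMAT (1.00 to 8.58).

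Aldh18a1, which opens proline synthesis, was at 191, 191, 171 and 140.0 CPM, with the CX4945 library lowest. It was 1.22-fold lower with CX4945 (1.05 to 1.43), and its ratio with DMAT was 1.00 (0.886 to 1.14). The aspartate transaminases Got1 and Got2 lay between 134 and 156 CPM and between 348 and 387 CPM. Only 48.6% of the reads of Got2 were unique, so its level is uncertain.

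The 3 enzymes of serine synthesis were each highest in the control for DMAT, with smaller differences. Psat1, the transaminase, was at 540.2, 432, 411 and 391 CPM and Phgdh, the first enzyme, at 359, 307, 299.8 and 302, with 30.6% of its reads unique and its level therefore uncertain. With DMAT Psat1 was 1.25-fold (1.16 to 1.35), Phgdh 1.17-fold (1.06 to 1.29) and the phosphatase Psph, between 61.4 and 89.7 CPM, 1.23-fold lower (1.02 to 1.50). The control for CX4945 was below the control for DMAT by 1.32-fold (1.21 to 1.43), 1.20-fold (1.09 to 1.32) and 1.45-fold (1.18 to 1.8). With CX4945 the ratios were 0.952 (0.865 to 1.05), 1.01 (0.902 to 1.13) and 0.995 (0.776 to 1.27).

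The folate enzymes, which take the one-carbon unit from serine and pass it along, mostly had other orders. Shmt2, the mitochondrial serine hydroxymethyltransferase, was at 592, 594, 562 and 547 CPM, and its ratio was 1.00 with DMAT (0.935 to 1.08) and 0.974 with CX4945 (0.898 to 1.06). Shmt1, the cytosolic form, was lowest in the control for DMAT and lay between 243 and 317 CPM. It was 1.19-fold higher with DMAT (1.07 to 1.33). In the control for CX4945 it was 1.24-fold above the control for DMAT (1.11 to 1.38). Mthfd1 and Mthfd1l, which interconvert folate forms, lay between 373 and 396 CPM and between 238 and 272 CPM. Their ratios with DMAT were 1.04 (0.955 to 1.14) and 1.14 (1.03 to 1.27).

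Mthfd2, the mitochondrial dehydrogenase of the pathway, had the same order of libraries as Psat1, at 296, 249, 228 and 205 CPM. In the DMAT pair it was lower by 1.19-fold (1.07 to 1.32), in the CX4945 pair by 1.11-fold (0.975 to 1.27), and the controls differed by 1.30-fold (1.16 to 1.45). As a mean level per kilobase of exon, Shmt2 was the most abundant member at 252 CPM, followed by Atf4 at 234. Asns was at 10.5, Trib3 at 4.51 and Chac1 at 3.09 on that scale, so the members with the largest ratios were also among those with fewer reads.

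**Figure D2:**
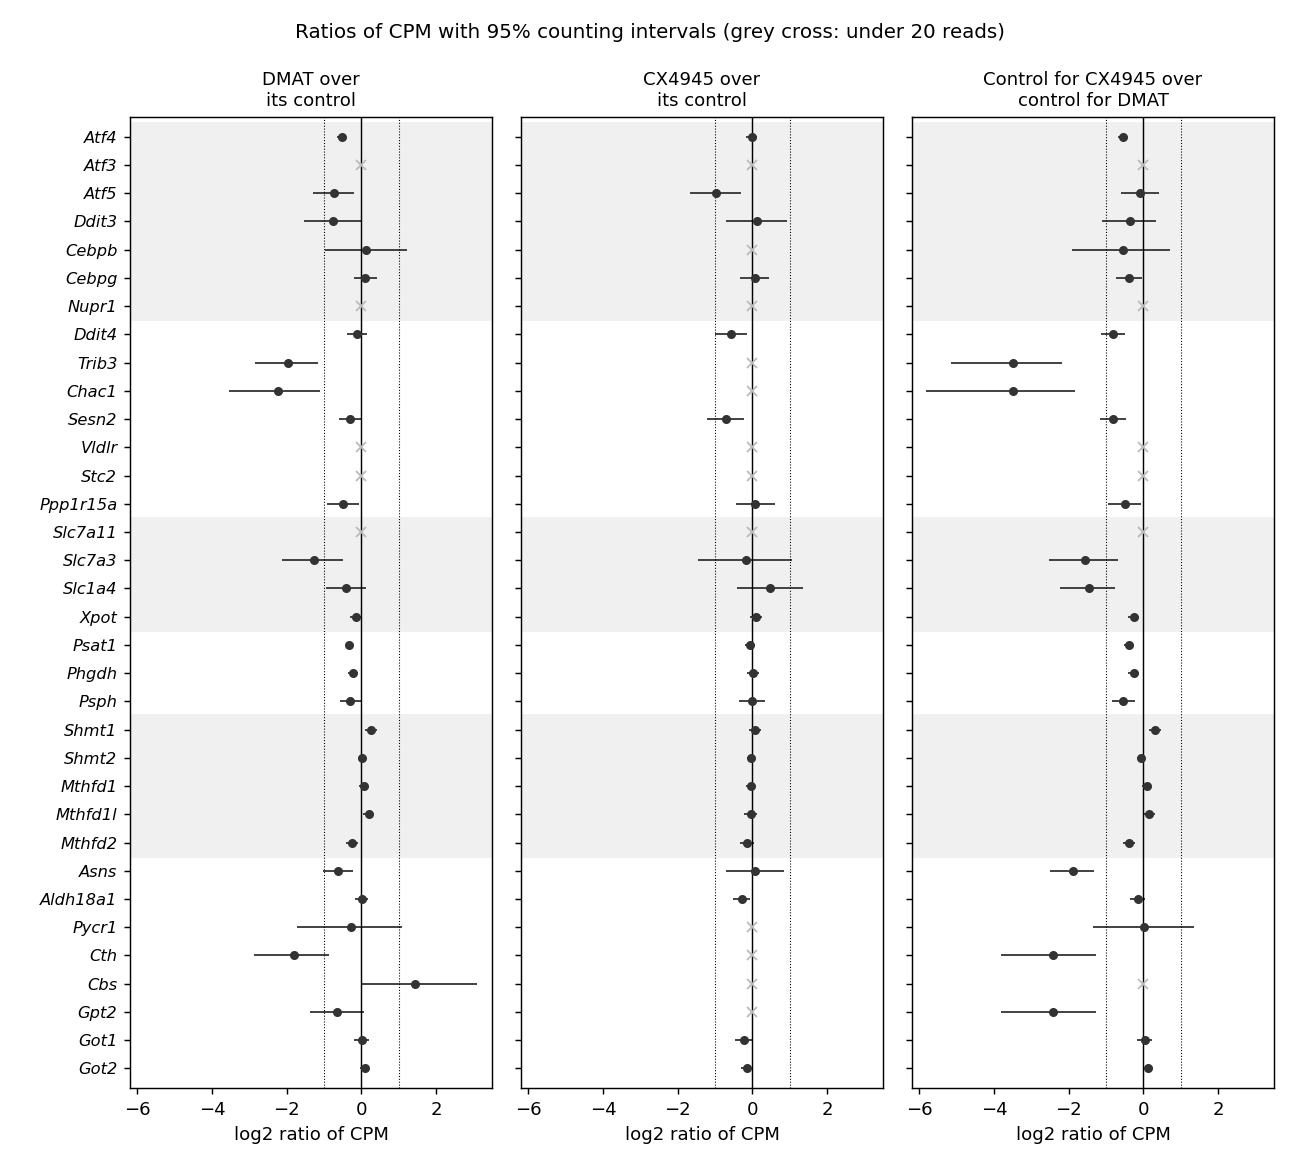
Log2 ratio of CPM for each gene with its 95% counting interval, for DMAT over its control, CX4945 over its control, and the control for CX4945 over the control for DMAT. Dotted lines mark 2-fold and grey crosses fewer than 20 reads. Trib3, Chac1, Cth and Slc7a3 lie below the lower dotted line in the DMAT panel, and these 4 with Asns, Slc1a4 and Gpt2 in the panel of the controls.

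Counted together, 29 members had at least 20 reads in the DMAT pair, 22 in the CX4945 pair and 28 in the controls. With DMAT 4 of 29, Chac1, Trib3, Cth and Slc7a3, were at least 2-fold lower, against 1.27% of 9649 genes, and 1, Cbs, was higher, against 1.09%. With CX4945 0 of 22 were lower and 0 higher, against 0.919% and 0.887% of 9358 genes. Between the controls 7 of 28 were at least 2-fold lower in that for CX4945, against 1.28% of 9564 genes, and 0 higher, against 0.983%. These calls used ratios with a prior count of 2 reads, which draws low counts towards no change.

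The DMAT comparison and the comparison of the controls share the control for DMAT. The 4 members counted as lower with DMAT had only 8 to 19 reads in the DMAT library, and between the controls Trib3, Chac1, Cth, Gpt2 and Slc7a3 had 3 to 14 reads in that for CX4945. They reached the minimum of 20 through the control for DMAT, so their count carries no support from the filter. Asns and Slc1a4, with 32 and 22 reads in the control for CX4945, reached it in either library. Cbs, counted as higher with DMAT, had 6 reads in its control and 15 with DMAT. It reached the minimum through the DMAT library, where it was high.

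At 1.5-fold, 8 of 29 members were lower with DMAT, against 4.84% of genes. With CX4945 there were 2 of 22, Atf5 and Sesn2, against 4.21%, and between the controls 9 of 28, against 4.8%. The median log2 ratio of the members was -0.25 with DMAT, -0.04 with CX4945 and -0.39 between the controls, beside medians within 0.01 of 0 for all genes. For the folate enzymes the medians were 0.06, -0.04 and 0.09, and for the feedback and stress effectors -0.48, -0.55 and -0.80, the second over 3 genes.

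Exchanging the controls changed these values. Against the control for CX4945, the median with DMAT was 0.116 over 26 members. Of these 26, Trib3, Asns and Gpt2 were at least 2-fold higher, against 1.69% of 9540 genes, and 0 were lower, against 1.77%. Trib3 and Gpt2 had 5 and 7 reads in the control for CX4945 and reached 20 through the DMAT library. Their part in that count therefore carries no support from the filter. Against the control for DMAT, the CX4945 library had a median of -0.53 over 27 members. At least 2-fold lower were 9 of the 27, against 2.22% of 9534 genes, and 0 were higher, against 1.59%. Of the 9, Trib3, Chac1, Cth, Gpt2 and Slc7a3 had 2 to 11 reads in the CX4945 library and reached 20 through the control for DMAT. Of 22 members read in both titled pairs, 8 were lower with both inhibitors (36.4%, against 25.7% of 9262 genes), 2 higher with both (9.09%, against 26.9%) and 12 of opposite sign (54.5%, against 47.4%). Signs were counted at any size, and Psph and Atf4, among the 8, had log2 ratios of -0.007 and -0.02 with CX4945. Of the 8, only Atf5 had counting intervals below no change in both pairs, on total reads. The inhibitors were used at different doses in separate experiments, so their values stand side by side and were not compared by a test.

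**Figure D3:**
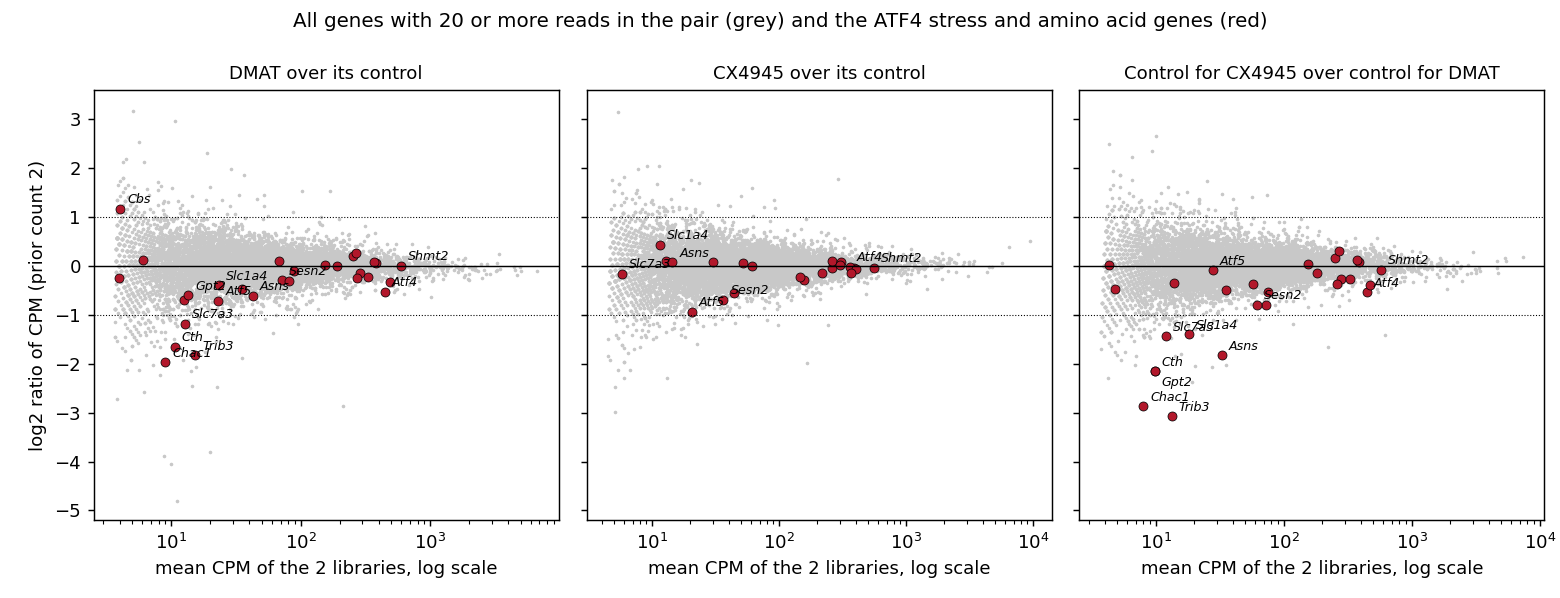
Log2 ratio against mean CPM (log axis) for all genes with at least 20 reads in each comparison (grey) and for the ATF4 stress and amino acid genes (red), with dotted lines at 2-fold. In the panel of the controls Trib3 and Chac1 are the lowest of 9564 genes, and in the CX4945 panel no red point passes a dotted line.

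Ranked from the lowest ratio between the controls, Trib3 was 1st and Chac1 2nd of 9564 genes, and Asns was at rank 14. With DMAT Chac1 was at rank 16, Trib3 at 21 and Cth at 29 of 9649 genes. In the CX4945 pair the lowest member was Atf5, at rank 110 of 9358.

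A joint test of the inhibitors (edgeR, quasi-likelihood, Benjamini-Hochberg over 9629 genes) took all 4 libraries, blocked by experiment. Of the 28 members tested, 0 passed an adjusted p of 0.05, and with DESeq2 and the same block also 0. Over all genes 0.384% fell and 0.177% rose. At an unadjusted p under 0.05 there were 8 members, each with a lower fitted level with the inhibitors, against 7.23% of genes in either direction. They were Atf4, Psat1, Trib3, Cth, Sesn2, Mthfd2, Atf5 and Slc7a3. A lower fitted level joins both pairs and need not be a fall in each. Trib3 had 5 reads in the control for CX4945 and 11 with CX4945. Most reads of Trib3, Cth and Slc7a3 came from the control for DMAT.

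Atf5 had the smallest adjusted p in the edgeR fit (log2 fold change -0.84 ± 0.26 SE, adjusted p = 0.228), lower in 2 of 2 pairs. It was followed by Cth (-1.51 ± 0.49, edgeR adjusted p = 0.29), Atf4 (-0.29 ± 0.10, 0.42) and Sesn2 (-0.45 ± 0.17, 0.445), and by Psat1 (-0.20 ± 0.09, 0.642). The residual spread of a gene in this fit comes from the disagreement of the 2 pairs, with 1 degree of freedom. The fit drew it towards the spread of the other genes with 19.7 prior degrees of freedom. Each SE and p-value therefore rests mostly on spread shared among genes. Without the DMAT library and the block, edgeR called 2 members, Sesn2 (log2 fold change -1.19, adjusted p = 0.028) and Ddit4 (-1.04, 0.0485), where the lone CX4945 library is assumed to vary like the controls. Leaving out any of the other 3 libraries called 0 members.

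Reads outside exons, taken as gene reads minus exon reads, are a separate count from the same libraries. Over all members they came to 399, 367, 349.7 and 356 CPM, and 30 members had at least 1. Over all features they came to 144391, 146314, 141803 and 150452 CPM, highest with CX4945. The highest library was not counted over all features, so the member counts given next have no background. By CPM of these reads the control for DMAT was highest for 12 of the 30, DMAT for 7, the control for CX4945 for 3 and CX4945 for 8, so the order of the exon reads was repeated in some members and not in others. The genes given next were chosen after their values were seen. Slc1a4 had 13, 12, 0 and 1 such reads, Cth 13, 4, 1 and 1, and Asns 7, 5, 2 and 1. For Slc1a4 and Asns the DMAT experiment was again above the CX4945 experiment, and for Cth the control for DMAT was above the rest. Psat1 had 45.4, 38.9, 28.0 and 32.4 CPM of these reads, with both libraries of the DMAT experiment the higher. Others differed from their exons. Phgdh had 11.5, 13.4, 14.0 and 14.2 CPM, lowest in the control for DMAT where its exon reads were highest. Atf4 had 6 reads in each library, Trib3 2, 3, 1 and 1, and Gpt2 1, 2, 1 and 2.

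Read beside the promoter sequences, 26 members had a window and at least 20 reads in the controls. Of the 6 that held TGATGNAA, 4 were at least 2-fold lower in the control for CX4945, namely Trib3, Chac1, Asns and Slc1a4, and Got1 and Pycr1 were not. Of the 20 without it, 1 was, Gpt2. With DMAT the counts were 2 of 6 with the letters and 0 of 21 without, and with CX4945 0 of 3 and 0 of 18. The median log2 ratio with CX4945 was 0.07 with the letters and -0.04 without. Trib3, Chac1 and Gpt2 reached 20 reads through the control for DMAT, where they were high, and the list itself was drawn up as ATF4 targets, so these counts describe the members and lend the letters no support. Over all genes with a window, the letters lay in 6 of the 88 that were at least 2-fold lower in the control for CX4945 (6.82%, against 2.61% of 6814), 4 of the 6 being these members. For genes at least 2-fold lower with DMAT the share was 8 of 89 (8.99%, against 2.62% of 6863), 2 of the 8 being members. With CX4945 it was 2 of 59 (3.39%, against 2.59% of 6673). A match of letters is a description and shows no binding.

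The genes around the members were read as 6 lists chosen for role. Of 18 genes for the eIF2 kinases, eIF2, eIF2B and their regulators, 0 rose, 0 fell and 18 did not pass the joint test, and the median log2 ratios were -0.06 with DMAT, -0.09 with CX4945 and -0.03 between the controls. Of 22 other reported ATF4 targets tested, 0 passed in either direction. In that list 21 of 23 were lower with DMAT, 11 of 21 with CX4945 and 17 of 22 between the controls, with medians of -0.20, -0.01 and -0.17. Over all genes the lower share was 49.2%, 49.4% and 49.8%, so the count with CX4945 was near the background. The glycine transporter Slc6a9 had 29, 10, 7 and 3 reads, and the growth factor gene Vegfa 81, 55, 26 and 21. Both were at least 2-fold lower in the control for CX4945 than in that for DMAT, and are named after their values were seen. Slc6a9 reached the read minimum only through the control for DMAT, where it was high, so its call carries no support from the filter. Only 42.9% of the reads of Slc6a9 were unique, so its level is uncertain. Vegfa, with 26 reads in the control for CX4945, reached the minimum in either library.

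Of 16 ER chaperones and genes of the other unfolded protein response arms 0 passed in either direction, and the medians were -0.10, -0.02 and -0.04. The other serine, glycine and folate genes gave 0 of 13, with medians of 0.07, -0.04 and -0.02. Among the other proline, glutamate, aspartate and arginine genes 0 of 16 passed (medians 0.05, -0.06 and 0.01), and among the methionine, cysteine and glutathione genes 0 of 11 (-0.20, -0.05 and 0.05). With 1 library for each control, the library and the experiment cannot be told apart, and what set the level of the stress genes in the control for DMAT was not tested.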

How the data were processed

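RNA-seq libraries (total RNA, TruSeq kit, MiSeq, per the labels' protocols) were analysed from 4 deposited tables of 37583 features. The authors deposited raw read counts per gene. The column of total exon reads, which also counts reads that fit several places, was used here. Unique reads were an alternative. The build mm9 and CASAVA 1.8.2 are named in the submitters' processing notes. The aligner, annotation, counting rule and strand setting are not given in the sources used here, so reads of overlapping genes may be shared.

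The members and gene lists were chosen with earlier results of these data known. Libraries were scaled with TMM factors (0.99 to 1.009; edgeR 4.0.16, R 4.3.3). A ratio needed 20 reads in the pair, and 2-fold calls used a prior count of 2, while printed folds and their exact conditional (Clopper-Pearson) 95% intervals used the reads alone. A count of 0 was read as up to 3 reads. The joint test was edgeR's quasi-likelihood test on all 4 libraries with the experiment as a block, and the SE is the absolute log2 fold change divided by the square root of F. DESeq2 1.42.0 was an alternative. The fit was also run on simulated data that held no difference between experiments, so that run does not bear on the use of the block here.

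The pairs come from the titles. As a check, the difference between the experiments in the controls and in the inhibitor libraries correlated across 6969 genes (Pearson's r = 0.425), and genes are not independent replicates. No library was a duplicate of another (chi-square per degree of freedom 2.45 to 5.30). The labels do not say whether the cultures came from separate animals, so p-values measure only the spread between these libraries.

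Values in every library were given for 8 core members, for those 2-fold changed in any comparison, for the 5 with the largest ratio in each and for the 5 with the smallest p. Other members are given by range, and Psph, Shmt1, Mthfd1 and Mthfd1l also by ratio. RefSeq promoters carry GRCm38.p6 coordinates, and gene positions are those of the files.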

Additional observations from a re-analysis of the deposited data

How the results depend on the processing

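With the other inhibitor's control, 3 members were 2-fold changed with DMAT in place of 5 and the median turned from -0.25 to 0.116, while with CX4945 there were 9 in place of 0 and the median went from -0.04 to -0.53. Under that setting the log2 ratios with DMAT of Trib3 and Slc7a3 turned to 1.24 and 0.25. Against the mean of both controls, 0 members were 2-fold changed with DMAT (median -0.00486) and 4 with CX4945 (median -0.27). At 1.5-fold the counts were 9 with DMAT and 2 with CX4945. At 100 reads, where fewer genes were tested, they were 0 with DMAT and 1 between the controls (median -0.26, from -0.39). Unique reads, and a minimum of 10 reads, each gave 1 with CX4945. The joint test called 54 of all genes, against 1 with no replicate block, 3 with DESeq2 and the block, 101 with total exon reads alone and 108 with unique reads, and each of these called 0 members. Leaving out each library in turn, without the block, gave 1 to 75 genes and 0 to 2 members. Except where fewer genes were tested, the cause was not tested. In the other 45 recomputations, counts stayed within 1.5 times and medians within 0.1 of the value given. In the CX4945 pair 12 members had fewer than 20 reads, too few for a ratio here, and without a second library per group no ratio within a pair has an error beyond counting.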

Other observations

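Among the pathway genes outside the members, a few were lower with both inhibitors, and all are named after their values were seen. Bcat1, the cytosolic branched-chain aminotransferase, had 611 reads in the control for DMAT, 392 with DMAT, 467 in the control for CX4945 and 321 with CX4945. Its log2 ratio was -0.51 with DMAT, -0.37 with CX4945 and -0.11 between the controls, and in the joint edgeR fit it did not pass (adjusted p = 0.0513). Slc25a32, the mitochondrial folate carrier, was at a log2 ratio of -0.23 in the DMAT pair and -0.67 in the CX4945 pair (edgeR adjusted p = 0.39). Atf6, a sensor of the unfolded protein response, had -0.72 and -0.20 (edgeR adjusted p = 0.157). Hmox1, a haem-degrading enzyme, was at least 2-fold lower with CX4945, on 23 reads in its control and 9 with the inhibitor. Prodh, which degrades proline, was at least 2-fold higher with DMAT, on 12 and 29 reads. Hmox1 and Prodh each reached the read minimum through the library where they were high, so these calls carry no support from the filter.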
